A study of Sus scrofa domesticus with 2 samples.

Results

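The genes described here were CTGF (CCN2), CYR61 (CCN1), ANKRD1, AMOTL2, YAP1 and WWTR1 (TAZ), the coactivator genes of the Hippo pathway and their best known targets. They were taken by name, not by their values, and all 6 of 6 were found among the 22804 features of both scRNA-seq libraries. The libraries were 1 of cultured aorta ECs and 1 of cultured lung ECs from the domestic pig. The lung ECs came from a perfused lung lobe and the aorta ECs from the stretch of aorta next to the lung. Both were released with collagenase and grown in DMEM with fetal calf serum, with no treatment given in the labels. The tissues for scRNA-seq in this study came from slaughtered crossbred pigs of Landrace, Large White and Duroc stock aged 6 months. Whether this holds for the pigs behind these cultures, and the number of pigs and passages, was not given in the sources used here.

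YAP and TAZ carry signals from cell shape, stiffness and cell contact into the nucleus. The kinases of the Hippo pathway phosphorylate them and keep them in the cytoplasm. When they are free of this brake they bind the TEAD transcription factors and turn on target genes. In ECs the pathway is known for its role in vessel sprouting and in the response to flow, and cells grown on stiff plastic generally show high activity of these targets. YAP and TAZ are regulated to a great part as proteins, which an RNA count does not show.

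CTGF and CYR61 encode secreted matricellular proteins of the CCN family, and ANKRD1 encodes an ankyrin repeat protein found in the nucleus and at contractile filaments. AMOTL2 encodes a junction protein of the angiomotin family that binds YAP. In Sscrofa11.1, RefSeq placed CTGF on chromosome 1 from 31674398 to 31677697 and CYR61 on chromosome 4 from 130392404 to 130395179. ANKRD1 was on chromosome 14 from 102603777 to 102612857 and YAP1 on chromosome 9 from 32811629 to 32924926. WWTR1 lay on chromosome 13 from 89742980 to 89889547 and AMOTL2 on the same chromosome from 75490936 to 75507360. All 6 were protein-coding. CTGF and YAP1 were on the plus strand and the other 4 on the minus strand.

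The letters bound by TEAD factors stand in the promoters of 3 of these genes, and those promoters are shown to let the copies and their spacing be seen. Each line is the 250 bases before the annotated gene start in Sscrofa11.1, 5′ to 3′ on the strand of the gene, with GGAATG or its reverse complement CATTCC in capitals. The CTGF window is chr1:31674148-31674397 (plus strand), the ANKRD1 window chr14:102612858-102613107 (minus strand) and the CYR61 window chr4:130395180-130395429 (minus strand).
CTGF: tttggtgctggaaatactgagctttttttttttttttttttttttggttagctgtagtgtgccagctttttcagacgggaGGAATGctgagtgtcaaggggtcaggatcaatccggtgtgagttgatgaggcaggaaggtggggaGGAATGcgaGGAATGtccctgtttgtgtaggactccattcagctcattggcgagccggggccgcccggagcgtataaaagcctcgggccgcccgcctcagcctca
ANKRD1: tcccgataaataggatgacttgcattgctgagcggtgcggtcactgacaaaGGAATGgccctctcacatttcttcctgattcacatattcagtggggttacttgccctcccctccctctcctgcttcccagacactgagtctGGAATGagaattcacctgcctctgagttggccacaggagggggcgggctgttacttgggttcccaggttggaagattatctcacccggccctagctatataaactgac
CYR61: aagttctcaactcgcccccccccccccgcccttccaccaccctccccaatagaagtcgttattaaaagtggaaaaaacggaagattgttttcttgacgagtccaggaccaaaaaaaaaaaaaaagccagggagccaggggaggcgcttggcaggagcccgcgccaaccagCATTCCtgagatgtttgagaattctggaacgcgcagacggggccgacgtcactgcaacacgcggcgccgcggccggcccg
The CTGF window held 3 copies, ending 165, 100 and 91 bases before the gene start. The ANKRD1 window held 2, ending 194 and 103 bases before it, and the CYR61 window 1, ending 75 bases before it. The windows of AMOTL2, WWTR1 and YAP1 held 0 copies. Among 19531 windows of the same length before RefSeq protein-coding genes without unknown bases, 10.3% held 1 copy or more, 0.758% held 2 or more, and 8 (0.041%) held 3 or more. A match of these letters is a description of the sequence, and binding was not measured in these libraries.

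The aorta library held 46080859 unique molecular identifiers (UMIs, each marking 1 captured transcript) in 1185 barcodes, and the lung library 57213236 UMIs in 5946 barcodes. After low-quality cells had been removed, 955 aorta cells with a median of 52080 UMIs and 5709 lung cells with a median of 9463 UMIs were left, so a typical aorta cell was far deeper. The libraries shared 5 barcodes. Clusters with endothelial markers gave 4953 endothelial-like lung cells and 636 endothelial-like aorta cells. Of 10 endothelial markers, 8 in the lung and 9 in the aorta reached 20 CPM (UMIs of the gene scaled to 1e6 summed UMIs of a class), and KDR was near 0 in both. Clusters with both COL1A1 and COL1A2 raised were called collagen-high, with 337 lung cells (clusters 7 and 9) and 139 aorta cells (cluster 3). These cells also carried PDGFRB and CSPG4 at 129 to 183 CPM and ACTA2 at 1154 CPM in the lung and 1528 CPM in the aorta, while LUM and DCN stayed under 13 CPM. Other markers of mural cells and fibroblasts were uneven, with COL3A1 at 511 CPM in the lung and 409 CPM in the aorta and CNN1 at 59.7 and 56.4 CPM. RGS5, MYH11, KCNJ8, PDGFRA and NOTCH3 were at 0 to 8.71 CPM in both, and DES at 25.1 CPM in the lung and 0.230 CPM in the aorta. Lung cluster 7 had PDGFRB and CSPG4 but neither COL1A1 nor COL1A2 among its top 10 genes, so collagen-high cells are compared with endothelial-like cells of the same library and not between lung and aorta. Another 91 lung cells were immune-like. The other 180 aorta and 328 lung cells, mostly shallow, were left unnamed. There was 1 library per tissue, so no test was possible, tissue and library cannot be told apart, and all intervals below are 95% intervals of counting error only.

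CTGF, ANKRD1 and WWTR1 were at least 2-fold lower in collagen-high than in endothelial-like cells in both libraries, whereas CYR61, AMOTL2 and YAP1 were not. In the lung, 3 of 6 genes were 2-fold or more lower, beside 9.73% of the 6045 features at 20 CPM and 20 UMIs or more in 1 of the classes. In the aorta, the same 3 of 6 were lower, beside 12.6% of 6301 features. None of the 6 was 2-fold or more higher in either library, beside 6.6% of the features in the lung and 7.89% in the aorta.

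ANKRD1 differed the most. It stood at 3556 CPM (3539 to 3572) in lung endothelial-like cells and at 477 CPM (455 to 499) in lung collagen-high cells, which is 7.46-fold lower. In the aorta it stood at 2159 CPM (2144 to 2175) in endothelial-like cells and at 70.8 CPM (65.4 to 76.6) in collagen-high cells, which is 30.5-fold lower (28.2 to 33.1). Immune-like lung cells stood between the other lung classes at 614 CPM (565 to 666), and no intervals overlapped. When the 5% of cells with the highest Scrublet doublet scores were left out, the lung ratio of ANKRD1 went from 0.134 to 0.0572 and that of WWTR1 from 0.21 to 0.126.

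CTGF was lower in collagen-high cells by a smaller factor. Its level was 2054 CPM (2039 to 2069) in aorta endothelial-like cells against 301 CPM (289 to 312) in aorta collagen-high cells, 6.83-fold lower. In the lung it was 1699 CPM (1688 to 1711) against 581 CPM (558 to 606), 2.92-fold lower. Immune-like lung cells were the lowest lung class, at 449 CPM (407 to 493).

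WWTR1, which encodes TAZ, was the coactivator gene that separated the classes. Its level was 83.1 CPM (80.6 to 85.6) in lung and 82.3 CPM (79.3 to 85.3) in aorta endothelial-like cells, which overlap. It was 17.4 CPM (13.5 to 22.1) in lung collagen-high cells and 8.50 CPM (6.67 to 10.7) in aorta collagen-high cells, 4.77-fold and 9.68-fold lower. The collagen-high levels rest on 68 UMIs in the lung and 74 in the aorta. Immune-like lung cells stood between at 49.2 CPM (36.1 to 65.4).

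YAP1 went the other way, by less than 2-fold. Lung collagen-high cells held 40.7 CPM (34.7 to 47.6) of it and lung endothelial-like cells 32.2 CPM (30.6 to 33.8). Aorta collagen-high cells held 56.5 CPM (51.6 to 61.7) and aorta endothelial-like cells 40.3 CPM (38.2 to 42.4), a ratio of 1.40 (1.26 to 1.55) that became 2.05 in cells with fewer than 5000 genes, on 18 UMIs in 23 collagen-high cells. The level in immune-like lung cells, 46.0 CPM (33.4 to 61.8), overlapped both other lung classes. The makeup of the coactivator UMIs therefore differed between classes: WWTR1 gave 72.1% (70.9 to 73.2) of the summed WWTR1 and YAP1 UMIs in lung endothelial-like cells and 67.1% (65.7 to 68.5) in aorta ones, but 30% (24.1 to 36.4) and 13.1% (10.4 to 16.1) in the collagen-high cells of lung and aorta. These shares compare classes and not the abundance of the 2 transcripts, since no per-length level was used. They leave out unnamed lung cluster 6 and aorta cluster 7, whose endothelial markers stood at a median of 106% and 92.2% of the endothelial-like level. Cluster 6 held 47 WWTR1 and 63 YAP1 UMIs, and aorta cluster 7 held 18 and 33, so the makeup was not the same in all cells with endothelial markers.

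CYR61 and AMOTL2 were close between the classes. CYR61 stood at 473 CPM (467 to 479) against 376 CPM (357 to 396) in the lung, and at 699 CPM (690 to 708) against 483 CPM (468 to 498) in the aorta, endothelial-like first. It was lowest in immune-like lung cells, at 106 CPM (86.0 to 128). AMOTL2 stood at 128 CPM (125 to 131) against 129 CPM (118 to 141) in the lung, which overlap, and at 213 CPM (208 to 218) against 150 CPM (142 to 159) in the aorta. CYR61 and CTGF, which are often read together as one readout, thus differed between the classes by unlike amounts: CYR61 in collagen-high cells was at 79.5% of its endothelial-like level in the lung and 69.1% in the aorta, and CTGF at 34.2% and 14.6%.

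**Figure D1:**
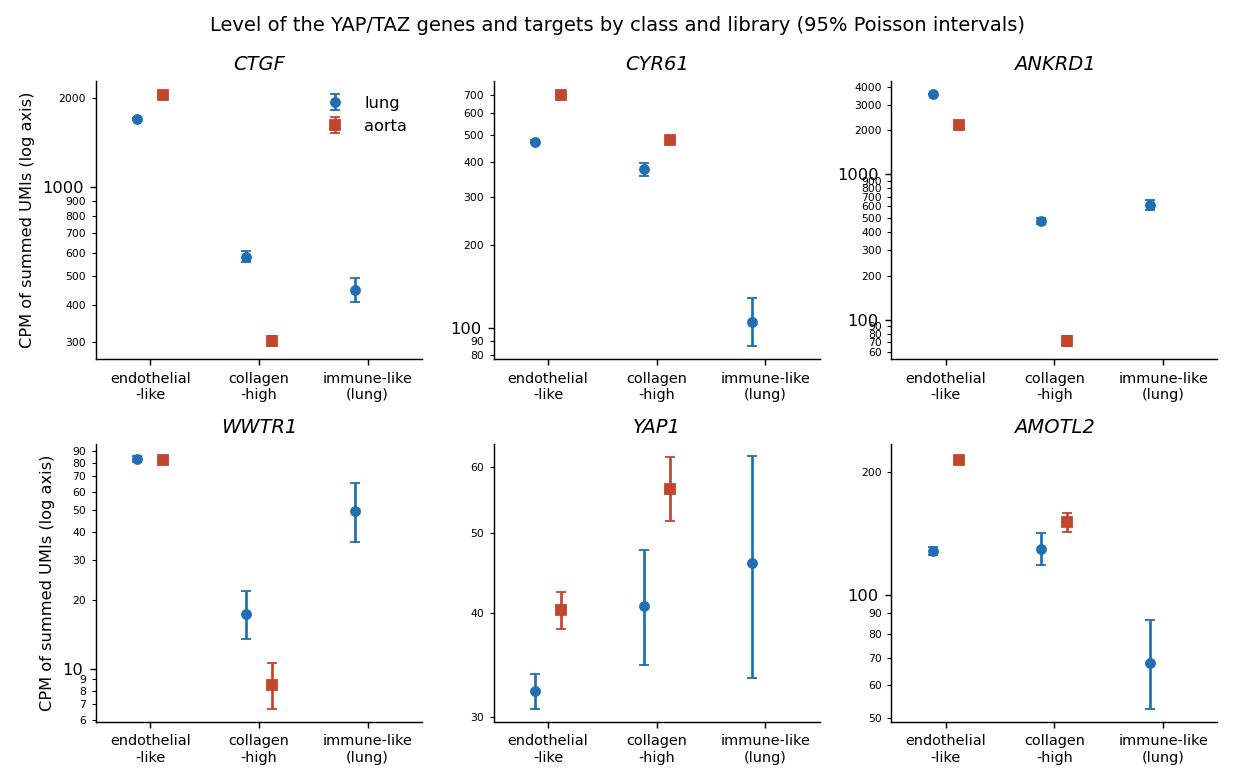
Level of each gene in CPM of summed UMIs (log axis, a separate range per panel) in endothelial-like, collagen-high and immune-like cells, with circles for lung, squares for aorta and bars for 95% Poisson intervals. CTGF, ANKRD1 and WWTR1 drop from endothelial-like to collagen-high cells in both libraries, WWTR1 from 83.1 to 17.4 CPM in the lung, while YAP1 is higher in collagen-high cells.

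Endothelial transcripts were also present in the collagen-high cells. The endothelial markers stood there at a median of 12.3% of their endothelial-like level in the lung (8 markers) and of 1.36% in the aorta (9 markers). ERG stood apart as the highest, at 25% in the lung and 31.7% in the aorta, and the other markers were at 10% to 14.7% and at 0.38% to 2.92%. KDR had 0 UMIs in aorta and 1 UMI in lung collagen-high cells. In the lung, ANKRD1 at 13.4% lay inside the range of the markers other than ERG, WWTR1 at 21% lay above it but under ERG, and CTGF, CYR61, YAP1 and AMOTL2 lay above every marker. By cluster, ANKRD1 at 12.8% was inside the marker range of cluster 7 (11% to 17.1%, with ERG at 32.2%), and at 15% above that of cluster 9 (4.58% to 9.79%). In cluster 9 ERG was the lowest marker, at 4.58%, so its high level in the lung came from cluster 7. In the aorta, ANKRD1 at 3.28%, WWTR1 at 10.3% and CTGF at 14.6% lay above every marker but ERG, and the other 3 above ERG too. How far endothelial RNA in these cells sets the levels was not tested.

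Lung collagen-high cells were therefore split by the UMIs of the 10 endothelial markers. In the 106 cells with no such UMI, ANKRD1 was at 220 CPM (191 to 252), 16.2-fold under the endothelial-like level. In the 70 cells with 3 or more it was at 1151 CPM (1090 to 1215), and these 70 cells held 1310 of the 1860 ANKRD1 UMIs of the class. WWTR1 was at 9.46 CPM (4.33 to 18.0) in the cells without a marker UMI and at 34.3 CPM (24.4 to 46.9) in those with 3 or more. CTGF moved less, from 546 to 825 CPM, and YAP1 was at 45.2 and 43.1 CPM with overlapping intervals. The split also goes with depth, with medians of 9486 and 15541.5 UMIs per cell. The 2 lung collagen-high clusters differed as well. Cluster 7, led by ACTG2 and COL6A1 and with PDGFRB and CSPG4 among its top 10 genes, had WWTR1 at 20.8 CPM (15.9 to 26.8), and cluster 9, led by WT1 and IGFBP5, had it at 7.83 CPM (3.38 to 15.4). Cluster 9 without marker UMIs kept ANKRD1 at 386 CPM (325 to 454), whereas cluster 7 without marker UMIs had 114 CPM (87.9 to 145). In the aorta only 5 collagen-high cells had no marker UMI, with 2 ANKRD1 and 0 WWTR1 UMIs among 172696. A count of 0 there allows a WWTR1 level of up to 17.4 CPM when the limit is set at 3 UMIs, and of up to 21.4 CPM by the exact Poisson interval.

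**Figure D2:**
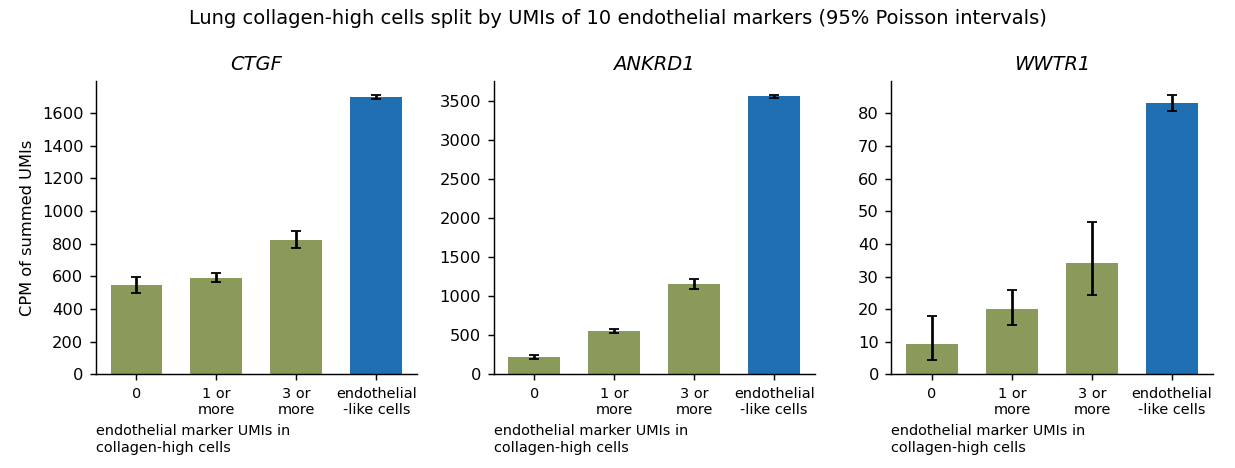
CPM of CTGF, ANKRD1 and WWTR1 in lung collagen-high cells with 0, with 1 or more and with 3 or more UMIs of 10 endothelial markers (green), beside lung endothelial-like cells (blue), with 95% Poisson intervals. ANKRD1 goes from 220 CPM at 0 marker UMIs to 1151 CPM at 3 or more, and every collagen-high bar stays under the endothelial-like bar.

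Per cell, ANKRD1 was nearly universal in lung ECs and uneven in aorta ECs. Each cell was thinned to 5200 UMIs to set depth equal, which left 4832 lung and 631 aorta endothelial-like cells. ANKRD1 had no UMI in 0.952% of lung and 15.1% of aorta endothelial-like cells. Its variance over its mean was 5.47 in the lung and 8.93 in the aorta, with medians of 17 and 9 UMIs per cell. In the aorta the cells without ANKRD1 were spread unevenly over clusters. In cluster 0, led by CXCL10, CCL5, SLPI and CFD, 63 of 240 cells (26.2%) had none. In cluster 1, led by S phase and histone genes, 8 of 173 (4.62%) had none, and its mean was 15.9 UMIs against 8.23 in cluster 0. CTGF was steadier, absent from 0.497% of lung and 1.11% of aorta endothelial-like cells, with a variance over mean of 1.9 and 2.6.

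In thinned collagen-high cells, ANKRD1 was absent from 51.6% in the lung and 82.6% in the aorta, and the 32 highest of 316 lung cells held 61.8% of its UMIs. The share of lung collagen-high cells with an ANKRD1 UMI, 48.4% (42.8 to 54.1), was under that of the immune-like cells, 68.4% (56.9 to 78.4), a type that should lack it. The share with a WWTR1 UMI was likewise 8.54% (5.71 to 12.2) against 22.8% (14.1 to 33.6). Neither share exceeded that of the immune-like cells. The immune-like cells themselves held endothelial markers at a median of 49.8% of the endothelial-like level, against 12.3% in lung collagen-high cells. This makes the reference high, and its part in the shares was not tested. The shares of ANKRD1 and WWTR1 in collagen-high cells are therefore read neither as expression nor as its absence. Median depth before thinning was 10750 UMIs in lung collagen-high and 10397 in immune-like cells. The CYR61 share of 77.5% (72.5 to 82.0) in lung collagen-high cells was above the 35.4% (25.0 to 47.0) of immune-like cells, and the AMOTL2 share of 42.7% (37.2 to 48.4) above 26.6% (17.3 to 37.7). Those of CTGF, 79.4% (74.6 to 83.8) and 74.7% (63.6 to 83.8), and of YAP1, 20.6% (16.3 to 25.5) and 26.6% (17.3 to 37.7), overlapped and are likewise read neither way. Unthinned, ANKRD1 was seen in 64.1% and WWTR1 in 14.2% of lung collagen-high cells.

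**Figure D3:**
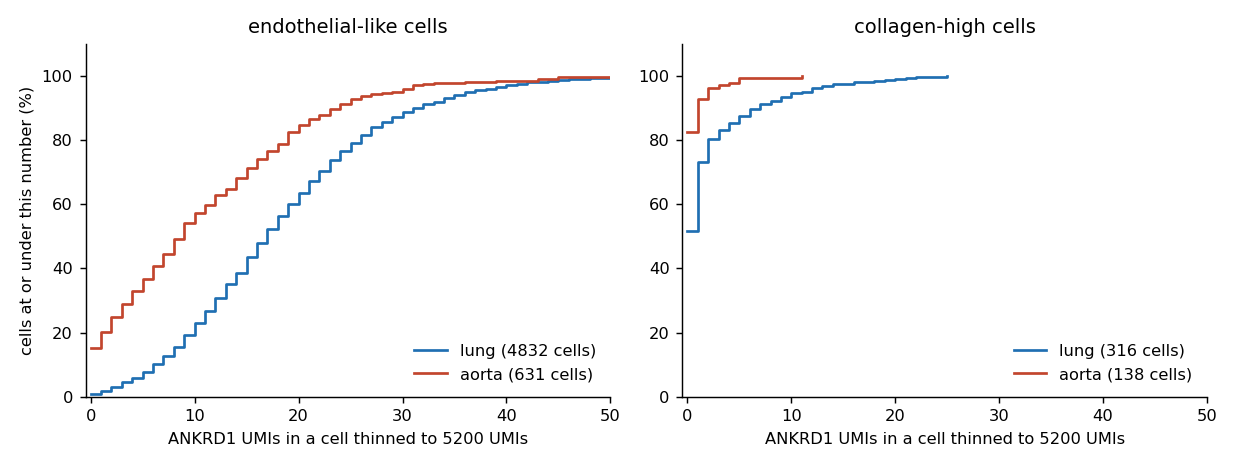
Share of cells (percent, y axis) at or under each number of ANKRD1 UMIs (x axis) after each cell was thinned to 5200 UMIs, for endothelial-like (left) and collagen-high cells (right), lung in blue and aorta in red. The aorta curve of endothelial-like cells starts at 15.1% at 0 UMIs and the lung curve at 0.952%, and the collagen-high curves start at 82.6% and 51.6%.

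Both coactivator transcripts were sparse at this depth. In thinned endothelial-like cells of the lung, 28.2% had WWTR1 UMIs alone, 9.6% YAP1 alone, 5.65% both and 56.6% neither. In the aorta these were 28.4%, 12%, 7.45% and 52.1%. In collagen-high cells YAP1 alone was the more frequent, with 18.7% against 6.65% for WWTR1 alone in the lung and 24.6% against 2.9% in the aorta. Across thinned endothelial-like cells, the highest correlation of a pair in the lung was that of CTGF with ANKRD1 (Pearson 0.301 on the natural log of UMIs plus 1, 4832 cells of 1 library), and WWTR1 with YAP1 was at 0.0251. WWTR1 was at -0.0843 with ANKRD1, -0.0367 with CTGF, -0.0426 with CYR61 and -0.0101 with AMOTL2. In the 631 aorta cells these were -0.228, -0.114, 0.00658 and -0.0446, and CTGF with ANKRD1 was at 0.262. These are sparse counts of cells that share a library, and the values are descriptions only.

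Between lung and aorta endothelial-like cells, 0 of 6 genes were 2-fold or more higher in the lung, beside 1.25% of 5907 features, and 0 of 6 were 2-fold or more lower, beside 3.06%. ANKRD1 was the gene higher in the lung, 3556 against 2159 CPM, a ratio of 1.65. AMOTL2 had a ratio of 0.60, CYR61 of 0.68, YAP1 of 0.80 and CTGF of 0.83, and WWTR1 was level at 1.01. In cells of 20000 to 50000 UMIs, 108 in the lung and 176 in the aorta, ANKRD1 reached 3422 against 1694 CPM, a ratio of 2.02 (1.96 to 2.08). WWTR1 in the same bin was 70.6 against 102 CPM, a ratio of 0.69 (0.58 to 0.82). It was 0.55 (0.40 to 0.77) from 10000 to 20000 UMIs, with 21 aorta cells, and 1.65 (0.83 to 3.82) from 5000 to 10000 UMIs, with 18 aorta cells. From 5000 to 10000 UMIs ANKRD1 had a ratio of 1.76, AMOTL2 of 0.35 and YAP1 of 0.74. From 10000 to 20000 UMIs these were 2.93, 0.49 and 0.49. AMOTL2 and YAP1 were at 0.75 and 0.70 from 20000 to 50000 UMIs. At 50000 UMIs or more, with 3 lung cells, ANKRD1 was at 1.27, AMOTL2 at 0.57 and YAP1 at 0.78.

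Depth went with the levels within a library too. In lung endothelial-like cells WWTR1 was at 97.1 CPM under 5000 UMIs, 96.7 CPM from 5000 to 10000, 73.2 CPM from 10000 to 20000 and 70.6 CPM from 20000 to 50000, while CTGF stayed between 1619 and 1769 CPM over these bins. The bin under 5000 UMIs held 102 cells. It left out unnamed lung cluster 6 (288 cells, median 2980.5 UMIs), whose endothelial markers stood at a median of 106% of the endothelial-like level. WWTR1 in cluster 6 was at 48.3 CPM (35.5 to 64.2), so the level in shallow lung cells depends on which cells were named. In the aorta, WWTR1 was at 133 CPM from 10000 to 20000 UMIs (21 cells), 102 CPM from 20000 to 50000 and 76.7 CPM above, and ANKRD1 over the same bins at 1303, 1694 and 2290 CPM. The 18 aorta cells of 5000 to 10000 UMIs broke this order, with WWTR1 at 58.8 CPM and ANKRD1 at 1858 CPM. In lung collagen-high cells ANKRD1 stood at 274, 272, 420 and 1134 CPM over the bins from shallow to deep, and the summed endothelial markers at 68.6, 150, 331 and 993 CPM. The shallowest and deepest of these bins held 21 cells each. ANKRD1 and WWTR1 differed 2-fold or more between these 2 bins, with 0 WWTR1 UMIs in the shallowest. That is 2 of 6 genes, beside 16.8% of 3524 features, and neither was counted among cells with fewer than 5000 genes, without cells under 1% mitochondrial UMIs or without the highest Scrublet scores. YAP1 went from 54.9 to 23.6 CPM on 4 and 12 UMIs, too few to be counted. In aorta collagen-high cells ANKRD1 was at 17.5 CPM from 20000 to 50000 UMIs (21 cells, 15 UMIs) and 77.5 CPM above, and 1 of 6 genes was past 2-fold, beside 1.77% of features. Between the ends of depth in endothelial-like cells 0 of 6 were past 2-fold in the lung, beside 3.82%, and 0 of 6 in the aorta, beside 11.6%.

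WWTR1 was also lower in cycling cells. Phases were called per cell from S and G2M gene scores, and G1 here means neither score was raised. In lung endothelial-like cells WWTR1 was at 101 CPM (97.2 to 106) in 2339 G1 cells, 70.8 CPM (65.9 to 76.0) in 1008 S cells and 67.5 CPM (63.8 to 71.5) in 1606 G2M cells. In the aorta it was at 97.9 CPM (93.3 to 103) in 339 G1 cells, 65.9 CPM (60.8 to 71.3) in 154 S cells and 68.8 CPM (63.4 to 74.5) in 143 G2M cells. In each library G1 stood apart from both other phases, and S and G2M overlapped.

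None of the 6 genes was 2-fold or more higher or lower in S or G2M than in G1. In the lung, 3.85% of features were past 2-fold higher and 0.299% lower in S, and 4.33% and 0.192% in G2M. In the aorta these were 7.19% and 1.44% in S, and 7.5% and 1.34% in G2M. The WWTR1 ratios of 0.70 and 0.67 in the lung were lower than those of all but 2.55% and 1.36% of features, and the aorta ratios of 0.67 and 0.70 lower than all but 6.53% and 8.12%. S and G2M cells were deeper. In lung cells of 5000 to 10000 UMIs, WWTR1 was at 108 CPM in G1, 76.7 CPM in S and 83.4 CPM in G2M, and from 10000 to 20000 UMIs at 94.6, 67.6 and 59.4 CPM. In aorta cells of 50000 UMIs or more it was at 92.1, 65.3 and 62.8 CPM. G1 stood apart in these 3 bins. In lung cells of 20000 to 50000 UMIs it did not: WWTR1 was at 74.9 CPM (56.9 to 96.8) in 33 G1 cells, 78.5 CPM (53.7 to 111) in 18 S cells and 65.5 CPM (52.4 to 81.0) in 57 G2M cells. In aorta cells of that depth G1 at 112 CPM (103 to 123) stood above S at 73.2 CPM (54.8 to 95.8) and overlapped G2M at 89.7 CPM (77.2 to 104).

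The targets differed from each other through the phases. ANKRD1 was higher in S than in G1, by a ratio of 1.17 (1.15 to 1.18) in the lung and 1.55 (1.53 to 1.58) in the aorta, where it went from 1855 to 2880 CPM. CTGF was higher in S by 1.12 and 1.11. AMOTL2 was lower in the aorta, at 188 CPM in S and 171 CPM in G2M against 248 CPM in G1, and in lung G2M cells, with a ratio of 0.88 (0.83 to 0.93), and its ratio in lung S cells was 1.01. CYR61 and YAP1 stayed within a ratio of 0.90 to 1.18 in both libraries. In aorta cells with fewer than 5000 genes the phase ratios were larger or turned: ANKRD1 had 2.5 in S and 2.71 in G2M, WWTR1 0.33 in G2M, and AMOTL2 1.44 in G2M. By cluster, the lung cells led by the linker histone HIST1H1D (cluster 5) had ANKRD1 at 5131 CPM and WWTR1 at 51.2 CPM, the highest and lowest levels among the lung endothelial-like clusters, against 3453 and 106 CPM in cluster 0, led by FILIP1 and with WWTR1 itself among its top 10 genes. The other lung clusters led by cycling genes were not alike, with WWTR1 at 85.5 CPM (79.3 to 92.2) in cluster 1, which had CDC20 and CCNB1, 75.7 CPM in cluster 3 and 60.1 CPM in cluster 4. In the aorta, cluster 1 was at 56.7 CPM, whereas cluster 2, which had ASPM and CDC20, at 89.2 CPM (82.8 to 96.0) overlapped cluster 0 at 94.4 CPM (89.1 to 99.9). Cells within 0.02 of a phase boundary numbered 352 of 4953 in the lung and 30 of 636 in the aorta.

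**Figure D4:**
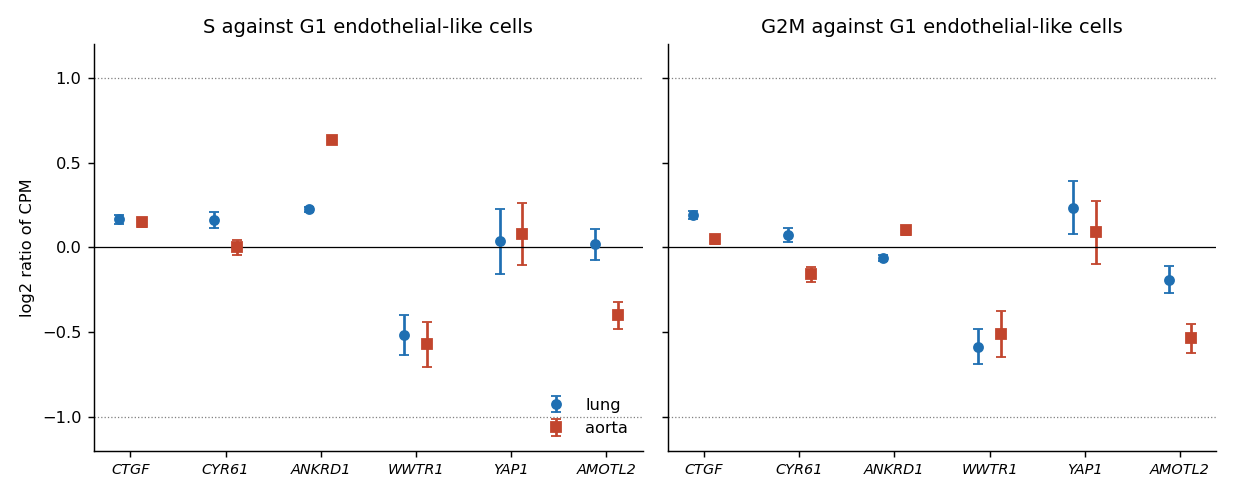
Log2 ratio of CPM of S (left) and G2M (right) to G1 endothelial-like cells, circles for lung, squares for aorta, with 95% intervals of counting error and dotted lines at 2-fold. WWTR1 lies at -0.52 and -0.57 in S and at -0.59 and -0.51 in G2M, lung first, and ANKRD1 in aorta S cells at 0.64.

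The remaining genes of the pathway were read from lists of its parts. Over all features, 6.6% in the lung and 7.89% in the aorta were past 2-fold higher in collagen-high cells, and 9.73% and 12.6% lower. These shares stand beside every list count for collagen-high against endothelial-like cells. Of the TEAD genes, TEAD1 was higher in lung collagen-high cells, at 54.1 against 17.6 CPM (3.07-fold, 2.63 to 3.57), and the other 2 of 3 at the minimum level were within 2-fold. In the aorta 0 of 3 were past 2-fold, and TEAD1 was at 55.1 against 31.2 CPM. VGLL3, a cofactor that binds TEAD in place of YAP and TAZ, was at 62.3 CPM (243 UMIs) against 0.86 CPM (44 UMIs) in the lung and at 66.2 against 2.06 CPM in the aorta, 72.3-fold (52.2 to 102) and 32.2-fold (25.2 to 41.6) higher in collagen-high cells. It was the 1 gene of its list at the minimum level. The Hippo kinase core had 0 of 6 genes past 2-fold in either library, with medians of -0.08 and -0.12 on the log2 scale beside -0.005 and 0.034 over all features. Among upstream regulators, RASSF1, a scaffold that binds the kinases, was higher in collagen-high cells of the lung (88.4 against 39.0 CPM) and aorta (72.3 against 35.2 CPM), 1 of 10 and 1 of 11 genes, and AJUBA, a LIM protein that restrains LATS kinases, was 2-fold or more lower in the aorta at 11.3 against 34.6 CPM and stood at 43.3 against 32.2 CPM in the lung, a ratio of 1.34 (1.14 to 1.58). Differences between the libraries in these ratios were not tested.

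Other genes of a YAP/TAZ target signature went both ways. Of 11 at the minimum level, TGFB2, CRIM1 and RBMS3 were lower in collagen-high cells of both libraries, 3 genes, like CTGF and ANKRD1. TGFB2, a TGF-β ligand, was at 79.7 against 305 CPM in the lung and 40.1 against 489 CPM in the aorta, 3.83-fold and 12.2-fold lower. AXL, a receptor tyrosine kinase, was higher, at 128 against 29.7 CPM in the lung and 194 against 30.8 CPM in the aorta, 4.30-fold and 6.31-fold. F3, which encodes tissue factor, was past 2-fold higher in the aorta at 74.2 against 35.2 CPM, and at 39.7 against 32.6 CPM in the lung. The median of the list was 0.017 in the lung and -0.27 in the aorta on the log2 scale, beside -0.005 and 0.034 over all features.

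In the CCN family, WISP2 (CCN5) was lower in collagen-high cells, at 7.69 against 64.3 CPM in the lung (8.37-fold) and 6.54 against 185 CPM in the aorta (28.3-fold). Of the SRF and actin genes, 4 were higher in both libraries, namely ACTA2, MYL9, FLNA and TAGLN, of 11 and 10 at the minimum level. ACTA2, the smooth muscle actin, was at 1154 against 4.86 CPM in the lung. MKL2, a coactivator of SRF, was lower in both, at 15.9 against 38.6 CPM in the lung and 9.41 against 32.0 CPM in the aorta. The immediate early gene EGR1 was lower in both, at 25.6 against 59.6 CPM and 27.3 against 118 CPM. In the aorta ATF3 and FOS were past 2-fold lower and FOSL1, an AP-1 subunit, was past 2-fold higher at 180 against 68.7 CPM. In the lung these were within 2-fold, ATF3 at 104 against 185 CPM, FOS at 62.0 against 111 CPM and FOSL1 at 96.9 against 52.3 CPM.

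**Figure D5:**
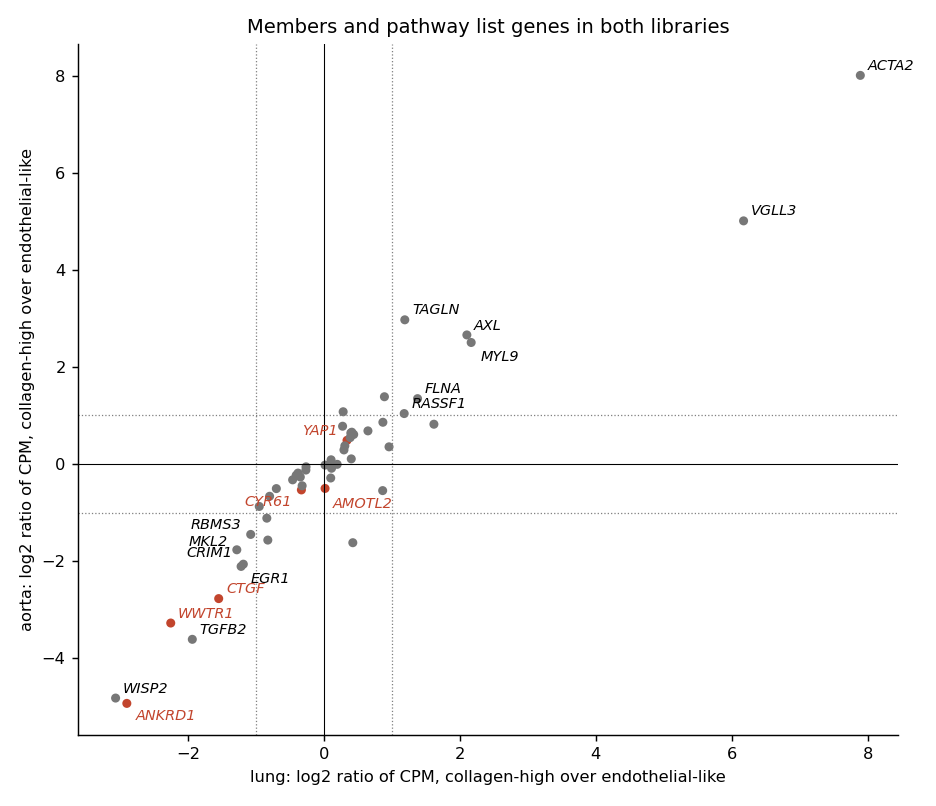
Log2 ratio of CPM of collagen-high to endothelial-like cells in the lung (x axis) and aorta (y axis) for 52 genes at the minimum level in both libraries, the 6 YAP/TAZ genes and targets in red and other pathway genes in grey, with dotted lines at 2-fold. The 16 genes past 2-fold the same way in both are named, from ANKRD1 and WISP2 at the lower left to VGLL3 and ACTA2 at the upper right, and 0 were past 2-fold in opposite ways. The shares of all features past 2-fold the same way or opposite ways in both libraries were not computed, so these counts have no background beside them.

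Between the endothelial-like cells of lung and aorta, 0 of 6 kinase genes, 0 of 3 TEAD genes and 0 of 10 upstream regulators were past 2-fold. Over all features, 1.25% were past 2-fold higher in the lung and 3.06% lower. The 2 other CCN genes at the minimum level were lower in the lung, NOV (CCN3) at 3.08 against 30.8 CPM and WISP2 at 64.3 against 185 CPM. CCDC80 was lower at 68.0 against 158 CPM, and KLF2, a flow-responsive factor of ECs, at 17.0 against 34.4 CPM. TAGLN was higher in the lung, at 973 against 243 CPM. By phase, IGFBP3, RBMS3 and NOV were 2-fold or more lower in aorta G2M than G1 cells, beside 1.34% of all features. In the other phase comparisons 0 listed genes passed.

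The genes most like each of the 6 were found over 11 groups of library, class and phase with 20 cells or more, by Pearson correlation of log2(CPM + 1) among 4066 genes. For ANKRD1 they were MFNG, THSD7A and PECAM1 (0.992 to 0.989), the last an endothelial marker. For CTGF they were VCAM1, BMP4 and CALCRL (0.994 to 0.993), and for WWTR1 MGAT4A, TMSB10 and BCAM (each 0.992). Among the 6 genes themselves, CTGF was at 0.963 with WWTR1 and 0.96 with ANKRD1, but at 0.591 with CYR61. For CYR61 they were ALDH18A1, TRPC4AP and ENSSSCG00000013052 (0.968 to 0.963), and CYR61 was at 0.848 with AMOTL2. AMOTL2 was most like LTBP2, FNDC3B and FBLN5 (0.955 to 0.932), and YAP1 most like SBDS, LRRC8A and ZFR (0.926 to 0.896). YAP1 was at -0.69 with WWTR1. The groups come from 2 libraries and differ in class, library and phase. CTGF, ANKRD1 and WWTR1 were past 2-fold between classes but not between libraries or phases, so their values describe mainly the class pattern. AMOTL2 and CYR61 had ratios of 0.60 and 0.68 between libraries. Between classes they had 1.01 and 0.79 in the lung and 0.71 and 0.69 in the aorta. Their values are therefore not read as a class pattern alone.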

How the data were processed

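The deposited values were UMI counts per gene and barcode that the authors made with Cell Ranger 3.0.2 (named in the submitters' processing notes too) and Sscrofa11.1, not normalized and with no limit on cells applied. Libraries were 10x 3′ ones. The cells analysed had more than 200 genes, and 12 mitochondrial genes made up less than 30% of their UMIs. The upper limit of 5000 genes in the methods would leave 246 aorta cells, fewer than the study gives, and was an alternative. Each library was clustered with Seurat 5.3.0 in R 4.3.3 (2000 variable genes less the markers and listed genes, 20 components, resolution 1). Classes were named from fixed markers, with thresholds chosen after the cluster levels were seen. A gene counted as past 2-fold at a CPM ratio of 2 or more with 20 CPM and 20 UMIs in the higher class. Levels have exact Poisson, shares Clopper-Pearson and ratios exact conditional intervals (95%, scipy 1.17.1). Where a group had 0 UMIs, 3 UMIs over its total set the upper limit. Phases came from CellCycleScoring. Scrublet (scanpy 1.11.5) called 0.942% of aorta and 0.035% of lung cells. The lung calls were too few to be relied on, so called doublets were left in for both libraries. Leaving out the cells with the highest scores was an alternative setting. How far doublets set the main ratios was not tested. Promoters were read from the RefSeq annotation and genome with pysam 0.24.0. Every one of the 6 genes is described. Listed genes are named where they passed 2-fold, and the 3 genes most like each of the 6 are named. Genes and lists were chosen with earlier results of these data known. Of the listed genes MOB1B, JUN and JUND were not among the features. The ratios and call rule were tested on simulated data, and 24 other settings were tried.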

Additional observations from a re-analysis of the deposited data

Results flagged for a closer look

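For 2 of the 6 genes, the ratios of G2M to G1 endothelial-like cells had counting intervals on opposite sides of 1 in the 2 libraries. The share of all features with such intervals was not computed. CYR61 had a ratio of 1.05 in the lung and 0.896 in the aorta. ANKRD1 had a ratio of 0.958 in the lung and 1.07 in the aorta. Counting intervals leave out the spread between cells. In thinned aorta endothelial-like cells the variance over mean of ANKRD1 was 9.09 in G1 and 6.19 in G2M, and that of CYR61 2.01 and 2.14. With 1 library per tissue the difference was not tested.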

How the results depend on the processing

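No paired analysis was possible because there was 1 library per tissue and the labels give no replicate numbers. No gene past 2-fold turned direction under the settings run. Between collagen-high and endothelial-like cells, 3 genes were lower and 0 higher in both libraries under each of them, except at 3-fold in the lung, where CTGF dropped out and 2 were lower. YAP1 in aorta cells with fewer than 5000 genes had a ratio of 2.05 but, on 18 collagen-high UMIs, was under the minimum of 20. Over the settings fixed at the start, the collagen-high ratios spanned 0.0572 to 0.138 (ANKRD1), 0.126 to 0.232 (WWTR1) and 0.28 to 0.346 (CTGF) in the lung, and 0.0311 to 0.035, 0.0717 to 0.107 and 0.14 to 0.175 in the aorta. With fewer than 5000 genes per cell, which left 159 endothelial-like aorta cells, ANKRD1 was past 2-fold higher in aorta S and in aorta G2M cells (1 gene each), WWTR1 past 2-fold lower in aorta G2M cells (1 gene), 4 genes differed by depth in aorta endothelial-like cells and 0 in lung collagen-high cells, and the aorta G2M ratios of AMOTL2 (1.44) and CYR61 (1.13) turned above 1. The count by depth in lung collagen-high cells also became 1 under 10% mitochondrial UMIs, with the listed genes among the variable genes and at 50 CPM, and 0 without cells under 1% mitochondrial UMIs and without the highest Scrublet scores. That in aorta endothelial-like cells became 1 under 10% mitochondrial UMIs and after thinning. At 1.5-fold, ANKRD1 was higher (1 gene) and AMOTL2 lower (1 gene) in lung than aorta endothelial-like cells, WWTR1 lower in lung G2M (1 gene), ANKRD1 higher in aorta S (1 gene), and the counts by depth were 1 in lung and 3 in aorta endothelial-like and 2 in aorta collagen-high cells. Between lung and aorta at matched depth, added after seeing the data, 1 gene was higher and 2 lower at 10000 to 20000 UMIs (21 aorta cells) and 1 higher at 20000 to 50000 UMIs. The share over all features was computed for the main setting only, so the counts under other settings have no background beside them. Why these counts moved was not tested. Of 337 such counts 315 stayed within 1.5 times, and of 684 ratios of single genes 579 stayed inside their counting interval and 105 moved out of it. Low counts limit WWTR1 in collagen-high cells, and aorta collagen-high cells without marker UMIs, only 5, were too few to recompute the aorta comparison.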

Other observations

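Some unnamed clusters had few mitochondrial UMIs, and the targets there stood in other proportions than in endothelial-like cells. In aorta cluster 4 (76 barcodes, median 2209.5 UMIs, 0.263% mitochondrial) WWTR1 was at 70.4 CPM (39.4 to 116), 85.5% of the endothelial-like level, and ANKRD1 at 1177 CPM (1036 to 1332), 54.5% of it. CTGF was at 277 CPM (211 to 357), 13.5%, and CYR61 at 108 CPM (68.4 to 162), 15.4%, beside a median of 36.2% for the endothelial markers. In lung cluster 11 (40 barcodes, median 1062.5 UMIs, 0.171% mitochondrial) ANKRD1 was at 64.8% and CTGF at 20.8%, beside a median of 44.6% for the markers, and WWTR1 and CYR61 rest on 3 UMIs each. Aorta cluster 5 (69 barcodes, median 3704 UMIs, 0.106% mitochondrial) had ACTG2, ACTA2 and TAGLN among its top 10 genes and a median of 0% for the markers. There ANKRD1 was at 8.8%, CTGF at 2.62%, CYR61 at 9.51% and WWTR1 at 7.7% on 2 UMIs, while YAP1 was at 86.4% on 11 UMIs. These clusters entered no comparison above, and over all clusters 110 aorta and 39 lung barcodes had under 1% mitochondrial UMIs, of which 5 and 2 were in endothelial-like clusters.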
